A study of Hernandia nymphaeifolia with 9 samples.

Results

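In leaves of Hernandia nymphaeifolia seedlings, 16 of 315331 assembled genes were raised after 7 days of salt water and were back near the control level after 14 days. They were chosen by measured values of all 9 libraries. Counts were summed over the isoforms of each assembled gene and divided by the total of the library, giving CPM, the usual depth-scaled count. A gene was kept when its control mean was under 500 CPM, its lowest 7 d library reached 5 CPM and at least 2 times the highest of the other 6 libraries, and its 14 d mean lay within 1.3-fold of the control mean either way. Because this choice used every group, the time course of the 16 sums is a description and is not supported by any test below. The genes carry identifiers of a transcript assembly and no names, so no function can be given to them, and neither pathway genes nor leaf cell type markers could be matched. They are numbered 1 to 16 by their mean CPM at 7 d. That order is one of counts and not of transcript numbers, since lengths were not used.

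Hernandia nymphaeifolia is a tree of tropical shores that grows beside mangroves. In plants, salt in the root zone first hinders water uptake, and a later ionic effect follows as sodium and chloride build up in the leaves. Leaf transcripts can follow this in different ways, some staying altered as long as the salt lasts and others passing through a transient state. An assembled gene is a set of transcripts that an assembler built from overlapping reads without a genome. Its isoforms may be splice forms, alleles or close copies, and assembled genes of the same read cluster share some sequence.

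Leaf polyadenylated RNA of seedlings 2 years old was sequenced in 9 libraries. The groups were 3 libraries after 7 days of 300 mM NaCl, 3 after 14 days of 300 mM NaCl and 3 controls in fresh water, and plants of all groups were flooded up to the branches for 3 h in every 12 h. The labels give 3 individuals per treatment and do not say whether the 7 d and 14 d leaves came from the same plants. The sampling day of the controls is not given in the labels, so time in the experiment and time in salt cannot be told apart. Libraries held 13166552 to 14201943 estimated counts, and 3 counts were worth 0.211 to 0.228 CPM.

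Within groups, libraries differed by more than counting noise. The chi-square per degree of freedom over gene sums was 4.93 to 8.20 between 7 d libraries. It was 5.46 between 14 d replicates 1 and 2, and 14.7 and 13.2 between 14 d replicate 3 and these. Between control libraries it was 10.1 to 18.0. The size of the group depended on single libraries. Without 14 d replicate 3, 61 genes met the rule, of which 12 were among the 16. Without 7 d replicate 1 or 2 the rule gave 25 or 33 genes, and without any other single library it gave 16 to 20. Leaving out a 7 d library can only loosen the rule, so it was fixed in advance that all 16 stayed. Leaving out a control or 14 d library can only loosen the 2-fold limit, but it also moves a mean used by the 1.3-fold bound. Without control replicate 1, 10 of the 16 met the rule.

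Together the 16 genes held 460 ± 32.2 CPM at 7 d, 117 ± 11.2 CPM at 14 d and 119 ± 27.9 CPM in control leaves (SD, n = 3 each). Their ratio of the 7 d mean to the control mean ran from 2.57 to 41.2 with a median of 3.89, and 8 of the 16 exceeded 4-fold. At 14 d the ratio to control was 0.808 to 1.27, within the bounds of the rule. It was above 1 in 8 genes and below 1 in the other 8, and the 14 d and control libraries overlapped in all 16. The bound on the 14 d mean favours such overlap, so nothing is read from it or from the split. In leaf RNA from many cell types, fewer cells of a type and less RNA per cell cannot be told apart.

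**Figure D1:**
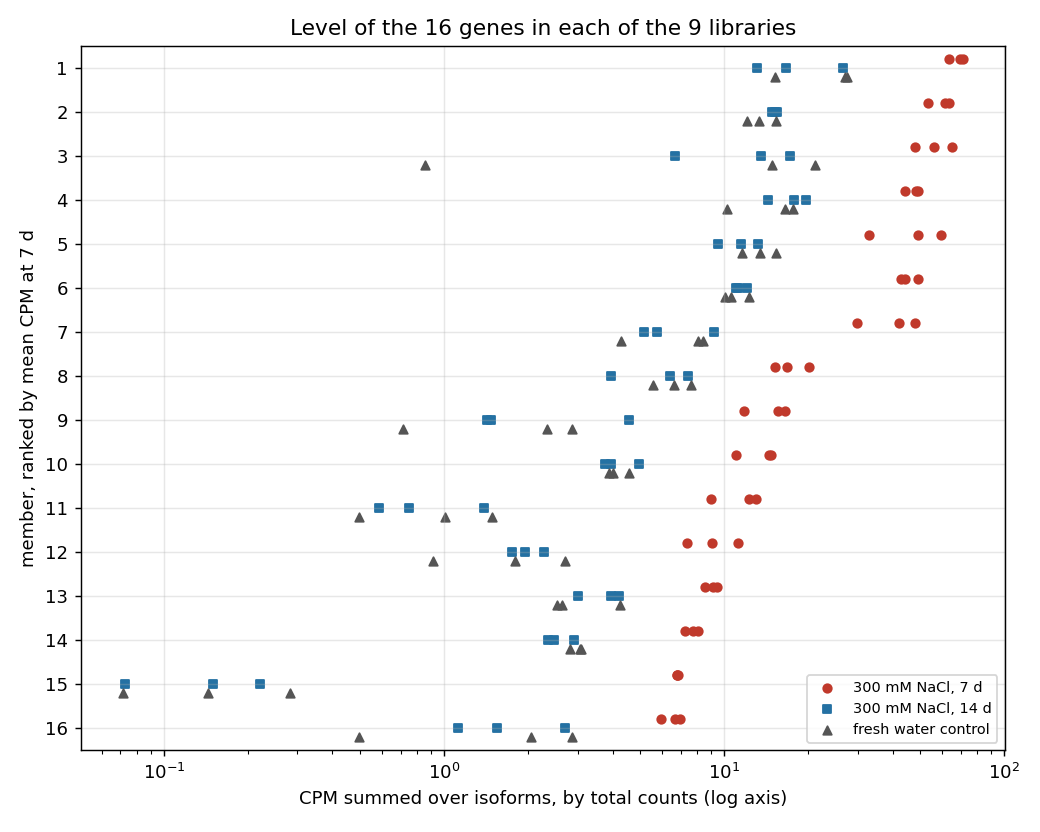
CPM of each of the 16 genes (rows, numbered by mean CPM at 7 d) in every library on a log axis, with circles for the 3 libraries at 7 d, squares for the 3 at 14 d and triangles for the 3 controls. The 7 d circles lie to the right of all other points in each row, as the rule requires. Squares and triangles overlap in all 16 rows, which the bound on the 14 d mean favours.

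Gene 1, TRINITY_DN1889_c0_g6, had the most counts at 7 d. It stood at 71.1, 63.7 and 69.6 CPM in the 7 d libraries, at 16.7, 13.1 and 26.5 CPM in the 14 d libraries, and at 15.3, 27.4 and 27.0 CPM in the controls. Its 7 d libraries lay close together, whereas 14 d replicate 3 stood above the other 14 d libraries and control replicate 1 below the other controls. The mean at 7 d was 2.93 times that of controls and the mean at 14 d 0.808 times.

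TRINITY_DN9901_c0_g1, gene 15, had the widest gap between 7 d and all other libraries. It was at 6.80, 6.80 and 6.84 CPM at 7 d, at 0.220, 0.150 and 0.0729 CPM at 14 d, and at 0.0713, 0.144 and 0.282 CPM in controls. These are 94, 95 and 90 counts at 7 d, 3, 2 and 1 counts at 14 d, and 1, 2 and 4 counts in controls, so most libraries outside 7 d were at or below the level of 3 counts. The 7 d mean was 41.2 times the control mean, and 63.4 times without control replicate 3, where the 14 d mean was 1.37 times the control mean. This gene passed the filter on low counts only through its 7 d libraries.

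Gene 2 was at 53.4, 63.5 and 61.6 CPM at 7 d, at 15.5, 14.9 and 15.2 CPM at 14 d, and at 12.0, 13.3 and 15.3 CPM in controls. Gene 6 was similarly even within groups, at 49.4, 43.0 and 44.4 CPM at 7 d, 12.0, 11.2 and 11.1 CPM at 14 d, and 10.6, 10.1 and 12.3 CPM in controls. In both genes the 14 d libraries lay close together. The 7 d mean was 4.39 times the control mean in gene 2 and 4.15 times in gene 6.

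Gene 11 was at 13.0, 12.2 and 8.96 CPM at 7 d, at 0.587, 0.748 and 1.38 CPM at 14 d, and at 0.499, 1.01 and 1.48 CPM in controls, an 11.5-fold ratio of the 7 d to the control mean. Gene 9 had 15.6, 11.7 and 16.6 CPM at 7 d, 1.47, 1.42 and 4.59 CPM at 14 d, and 0.713, 2.87 and 2.32 CPM in controls. Its ratio of 14 d to control was 1.27 with all libraries and 0.733 without 14 d replicate 3. It was 1.53 and 1.54 without 14 d replicate 1 and 2, and 1.64 and 1.39 without control replicate 2 and 3. Each of these 5 values lies outside the bounds of the rule.

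In gene 3 the controls lay far apart. It was at 65.2, 48.2 and 56.3 CPM at 7 d, at 6.68, 13.5 and 17.2 CPM at 14 d, and at 0.855, 14.8 and 21.1 CPM in controls. Control replicate 1 was thus below every 14 d library, while control replicate 3 was above all of them. Without control replicate 3 the ratio to control was 7.23 at 7 d and 1.59 at 14 d, against 4.62 and 1.02 with all libraries. Without control replicate 1 these ratios were 3.15 and 0.696, so leaving out either control moved the gene out of the rule, in opposite directions.

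Genes 5 and 7 varied most at 7 d. Gene 5 was at 59.3, 33.0 and 49.3 CPM at 7 d, at 11.5, 9.50 and 13.2 CPM at 14 d, and at 13.5, 11.6 and 15.3 CPM in controls. Gene 7 was at 48.1, 29.8 and 42.2 CPM at 7 d, at 9.18, 5.16 and 5.76 CPM at 14 d, and at 4.28, 8.04 and 8.38 CPM in controls. In both, 7 d replicate 2 was the lowest of its group and replicate 1 the highest. Across all 16 genes, 7 d replicate 2 was the lowest 7 d library in 9, and replicate 1 was lowest in 6. The share over all genes is not given, so this order is not read as a trait of the 16.

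Gene 4 averaged 47.3 ± 2.61 CPM at 7 d, 17.3 ± 2.66 CPM at 14 d and 14.8 ± 3.99 CPM in controls (SD, n = 3 each). Gene 8 averaged 17.4 ± 2.49, 5.93 ± 1.79 and 6.60 ± 1.03 CPM in these groups, and gene 10 averaged 13.4 ± 2.04, 4.22 ± 0.646 and 4.15 ± 0.362 CPM. Genes 12, 13, 14 and 16 had 7 d means of 6.53 to 9.22 CPM and ratios to control of 5.11, 2.88, 2.57 and 3.62.

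Spread within groups was larger outside 7 d. The median coefficient of variation of the 16 genes was 11.7% at 7 d, 23.7% at 14 d and 30.1% in controls. Among all genes whose group mean lay between the quartiles of the 16 genes' means, the medians were 10.7%, 16.9% and 19.1%. Control replicate 1 was the lowest control in 10 of the 16 genes, and 14 d replicate 3 the highest 14 d library in 9. Shares over all genes are not given, and libraries also differed over all gene sums. These counts are therefore not read as a trait of the 16 genes. The part that control replicate 1 and 14 d replicate 3 play in the values was not tested.

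Close to the thresholds, genes inside and outside the rule had like values. Gene 8 was the nearest inside the 2-fold limit, with a lowest 7 d library 2.00 times its highest other library, and the nearest gene outside stood at 1.99 times. Gene 16 was the nearest inside the limit of 5 CPM with 5.94 CPM in its lowest 7 d library, and the nearest outside had 4.78 CPM. Gene 9 was the nearest inside the 1.3-fold bound at 14 d, with 1.27, and the nearest outside lay just beyond 1.3.

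The 16 genes were a small part of what rose at 7 d. With the conditions on 7 d and control alone, 925 genes qualified, and 758 of them, or 81.9%, had a 14 d mean more than 2 times the control mean. Of the rest, 119 lay between 1.3 and 2 times the control mean, 12 lay below it by more than 1.3-fold and 36, or 3.89%, lay within 1.3-fold. Besides the 16 genes, these 36 included 20 in which the lowest 7 d library was not 2 times every 14 d library. Over 920 of the 925 genes with counts in controls, the median 14 d mean was 3.29 times the control mean. The mirror rule, for genes lowered at 7 d only, was met by 99 genes.

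**Figure D2:**
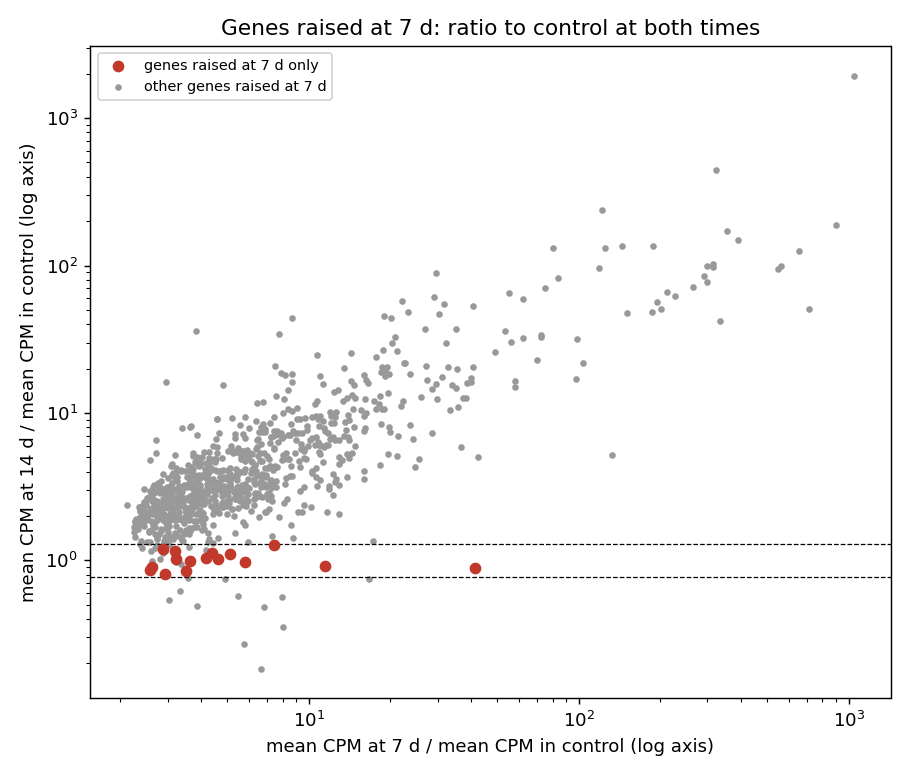
Ratio of mean CPM to the control mean at 7 d (horizontal) and at 14 d (vertical), both on log axes, for genes whose 7 d libraries were at least 2 times every control library. Large points are the 16 genes, small points the others, and dashed lines mark the 1.3-fold bounds, most small points lying above them.

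In the edgeR quasi-likelihood fit of all gene sums, all 16 genes passed the filter on low counts and all 16 were called higher at 7 d than in controls, where 11.3% of the 62564 tested genes were called higher. All 16 were called lower at 14 d than at 7 d, against 4.37% of tested genes. At 14 d against control, 0 of the 16 were called by edgeR or by DESeq2 and 0 had an unadjusted edgeR p under 0.05, while 16.4% of tested genes were called in either direction. The rule used these same libraries, so nothing is read from these counts. The median fitted log2 fold of the 16 genes was 1.94 for 7 d over control and -0.06 for 14 d over control, and that of all tested genes -0.02 and 0.01. DESeq2 called 15 of the 16 in either comparison with 7 d, gene 3 being the exception.

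Which isoforms carried the rise was not part of the rule. Of the 16 genes, 4 had a single isoform and 12 had 2 to 7, and these 12 had at least 2 isoforms with enough counts to be tested. Some of these isoforms passed the filter on low counts only through their 7 d libraries. Among them were i11 and i13 of gene 2, i4 of gene 9, i3 of gene 11 and i9 of gene 16. Genes 9, 11 and 16 had 2 tested isoforms each, so they could be tested only because of the rise at 7 d. The test, edgeR's diffSpliceDGE, asks whether isoforms of a gene changed unequally. A rise of a sum that 1 isoform carries also shifts shares, so calls that involve the 7 d libraries are given as a description. At 7 d against control 5 of the 12 genes were called in isoform use, beside 16.1% of the 18721 genes with 2 or more tested isoforms. Among the 925 genes raised at 7 d, 540 could be tested and 29.4% were called, beside 29.0% of the genes lowered at 7 d only. Of the 25 testable raised genes within 1.3-fold of control at 14 d, which include the 12, 32.0% were called. At 14 d against 7 d 5 of the 12 were called, beside 7.25% of all, 9.81% of the raised genes and 24.2% of the genes lowered at 7 d only. Both comparisons share the 7 d libraries. At 14 d against control 1 of the 12 was called, beside 9.47% of all and 22.6% of the raised genes. The share called was 9.68% among genes lowered at 7 d only. It was 8.0% among raised genes within 1.3-fold of control at 14 d, which include the 12.

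**Figure D3:**
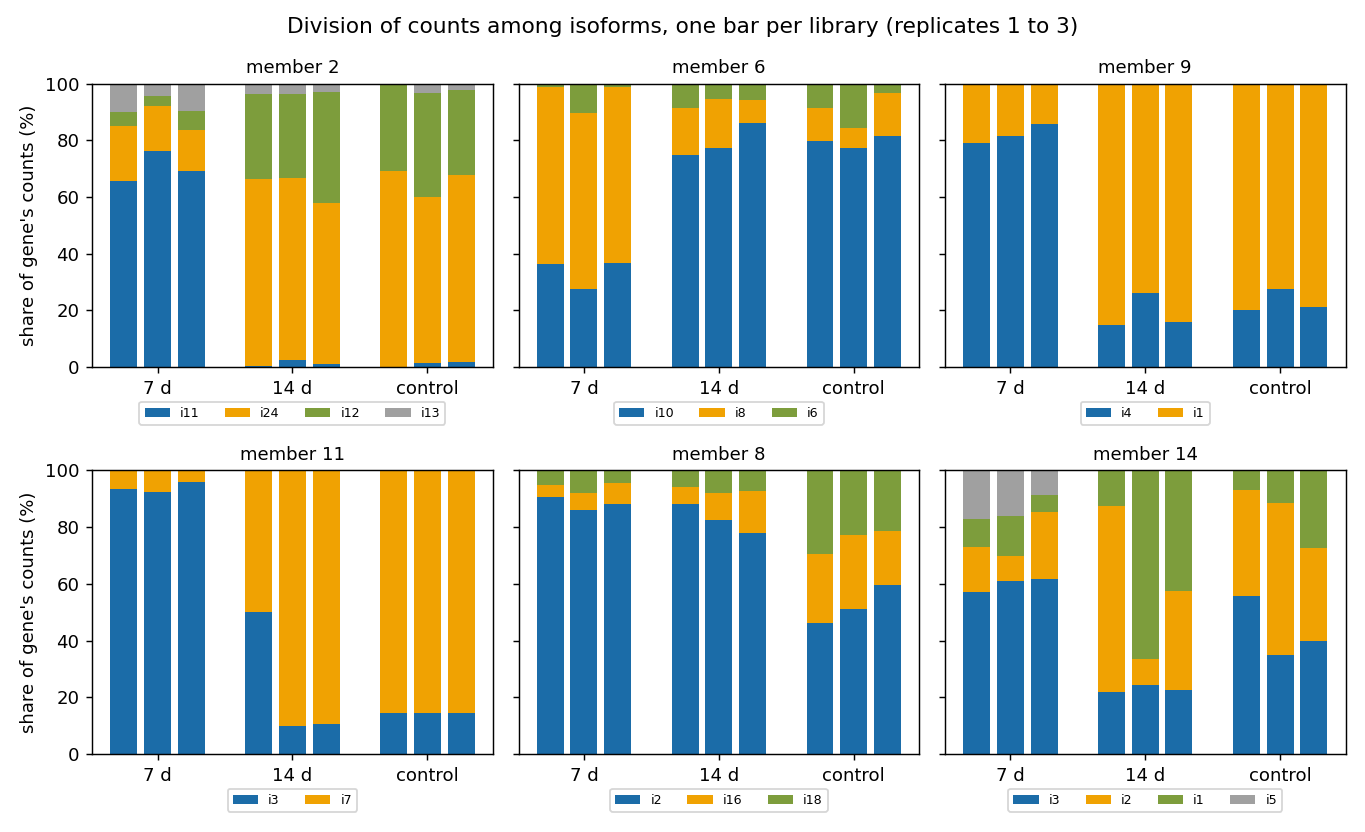
Share of the counts of an assembled gene held by each isoform (percent), 1 bar per library, for the 6 genes called in isoform use in at least 1 comparison (member n in a panel title is gene n, legends the isoform suffix, bars run from replicate 1 to 3). In genes 2, 6, 9 and 11 the bars at 7 d differ from those of 14 d and control, which look alike apart from 14 d replicate 1 of gene 11, whereas in gene 8 the bars at 14 d resemble those at 7 d.

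The rise of gene 2 came almost wholly from isoform TRINITY_DN654_c0_g2_i11. This isoform held 65.6%, 76.1% and 69.1% of the gene's counts at 7 d, 0.474%, 2.51% and 0.957% at 14 d, and 0, 1.62% and 1.83% in controls. Its mean level was 42.0 CPM at 7 d, 0.198 CPM at 14 d and 0.166 CPM in controls, from 484, 675 and 560 counts at 7 d and at most 5 counts in any other library. It made up 91.0% of the difference between the 7 d and control sums. The isoform with the most counts in controls, i24, stayed close to one level, with means of 9.85 CPM at 7 d, 9.48 CPM at 14 d and 8.74 CPM in controls. Isoform i13 of this gene, with few counts, was also higher at 7 d, at 4.64 CPM against 0.516 CPM at 14 d and 0.285 CPM in controls.

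Gene 11 divided the same way. Isoform TRINITY_DN41629_c0_g2_i3 had 168, 158 and 113 counts at 7 d, 4, 1 and 2 counts at 14 d, and 1, 2 and 3 counts in controls. Its share was 93.8 ± 1.74% at 7 d, 23.5 ± 22.9% at 14 d and 14.3% in every control (SD, n = 3 each for 7 d and 14 d). The other isoform, TRINITY_DN41629_c0_g2_i7, averaged 0.727 CPM at 7 d, 0.735 CPM at 14 d and 0.852 CPM in controls, so its share was lowest at 7 d while its mean level was similar in the 3 groups. Shares outside 7 d rest on 7 to 21 counts of the gene per library. In 14 d replicate 1, with 8 counts, both isoforms had 4.

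In gene 9, the share of isoform TRINITY_DN5285_c1_g1_i1 was 20.8%, 18.3% and 14.2% at 7 d, 85.0%, 73.7% and 84.1% at 14 d, and 80.0%, 72.5% and 78.8% in controls. Its level was 2.59 CPM at 7 d, 2.05 CPM at 14 d and 1.49 CPM in controls. The other isoform of the gene, i4, averaged 12.1 CPM at 7 d, 0.441 CPM at 14 d and 0.475 CPM in controls, and made up 91.4% of the difference between 7 d and control.

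Gene 6 rose at 7 d mainly in isoform i8, which held 62.2%, 62.0% and 62.2% of its counts at 7 d, 16.5%, 17.3% and 7.89% at 14 d, and 11.4%, 7.14% and 14.9% in controls. Isoform i8 averaged 28.3 CPM at 7 d, 1.60 CPM at 14 d and 1.25 CPM in controls, and i10 averaged 15.4, 9.08 and 8.75 CPM in these groups. Isoform i8 made up 78.2% of the difference between 7 d and control, and i10 19.2%.

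Gene 8 was the 1 gene of the 12 whose isoform use was called at 14 d against control (edgeR diffSpliceDGE F test, adjusted p = 0.000615). Isoform i2 held 88.1%, 82.6% and 77.8% of its counts at 14 d and 46.2%, 50.9% and 59.6% in controls, so that the groups did not overlap. At 7 d it held 90.6%, 85.9% and 88.2%. The other isoforms, i16 and i18, averaged 0.541 and 0.418 CPM at 14 d and 1.54 and 1.59 CPM in controls, with no overlap between the groups. At 14 d these are only 6, 8 and 8 counts of i16 and 6, 7 and 4 counts of i18. In controls i16 had 19, 28 and 18 counts and i18 had 23, 24 and 20. Tested singly, no isoform of the gene was called at 14 d against control. The edgeR diffSpliceDGE p adjusted over all isoforms was 0.293 for i16, 0.0817 for i18 and 0.594 for i2. Isoform i2 averaged 4.97 CPM at 14 d and 3.46 CPM in controls, and its libraries overlapped. The sum of the gene was chosen to lie near control at 14 d, but its division among isoforms was not. Simes-combined p-values ended this call (adjusted p = 0.103), and no single left-out library did, with adjusted p from 0.00032 to 0.0139 in diffSpliceDGE.

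Gene 14 was called at 14 d against 7 d only. Isoform i3 held 21.9%, 24.2% and 22.5% of its counts at 14 d and 57.0%, 61.1% and 61.8% at 7 d, and in controls it held 55.8%, 34.9% and 40.0%. Isoform i5 had 0 counts in the 14 d and control libraries and 17, 18 and 9 counts at 7 d. Each library outside 7 d held 32 to 43 counts of the gene, so these shares have wide counting error. The call was lost without 7 d replicate 1 (edgeR diffSpliceDGE adjusted p = 0.0641) and with Simes-combined p-values (adjusted p = 0.147).

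Isoform use was called in none of the 3 comparisons by diffSpliceDGE for 6 of the 12 genes, namely genes 1, 5, 7, 10, 13 and 16. In gene 1, isoform i2 held 76.0% to 86.8% of the counts in salt libraries and 72.0% to 84.1% in controls. In gene 5, isoform i1 held 68.7 ± 2.81% at 7 d, 70.7 ± 6.41% at 14 d and 62.6 ± 1.95% in controls (SD, n = 3 each), and both of its isoforms were higher at 7 d, at 32.3 and 14.9 CPM against 8.39 and 5.05 CPM in controls. In gene 7, isoform i6 held 60.9% to 66.4% at 14 d and 73.3% to 82.4% in controls, without overlap. Isoform i3 of this gene held 29.6% to 34.2% and 13.4% to 18.3% in these groups (edgeR diffSpliceDGE adjusted p = 0.603 for the gene). A missed threshold does not show that isoforms kept their shares.

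Applied to single transcripts instead of gene sums, the rule was met by 30 transcripts, which belonged to 30 assembled genes. Of the 16 genes, 12 held such a transcript, 8 of them with more than 1 isoform. The sums of genes 8, 13, 14 and 16 met the rule while none of their isoforms did.

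The 16 genes lay in 16 different read clusters, and 12 of these clusters held other assembled genes, 37 in all. These were not chosen by the rule, though reads shared with a gene of the 16 can move them too, and that part was not tested. Of the 37, 25 had enough counts to be tested. At 7 d against control 5 of the 25 were called higher and 4 lower (edgeR quasi-likelihood, adjusted over all genes), beside 11.3% and 13.9% of all tested genes. At 14 d against 7 d 1 was called higher and 7 lower, the lower calls beside 4.37%. In either direction 7045 of the 62564 tested genes were called in that comparison. The share called higher alone is not given, so nothing is read from the 1 called higher. At 14 d against control 3 were called higher and 6 lower, beside 7.97% and 8.4%. All 4 other genes in the cluster of gene 4 were among these 6. Genes of the same cluster share sequence, so the 25 are not independent of each other. The full time course of calls, higher at 7 d than control, lower at 14 d than at 7 d and no call at 14 d against control, was shown by 3 of the 25 and by 1.68% of all tested genes. These 3 were in the clusters of genes 5 and 6, and 1 gene showed these calls without 7 d replicate 1, 7 d replicate 3 or 14 d replicate 2. Without control replicate 1 or 7 d replicate 3, 3 were called higher at 7 d. Of the 5 called higher at 7 d, 1 lay in the cluster of gene 13, averaging 2.64 CPM at 7 d, 2.84 CPM at 14 d and 1.47 CPM in controls, and was also among the 3 called higher at 14 d (edgeR adjusted p = 0.0484 at both times). DESeq2 called it at neither time (adjusted p = 0.0893 and 0.0969). With 1 library left out its edgeR adjusted p ran from 0.0364 to 0.133 at 7 d and from 0.024 to 0.145 at 14 d, where 8 of the 9 settings ended the call.

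**Figure D4:**
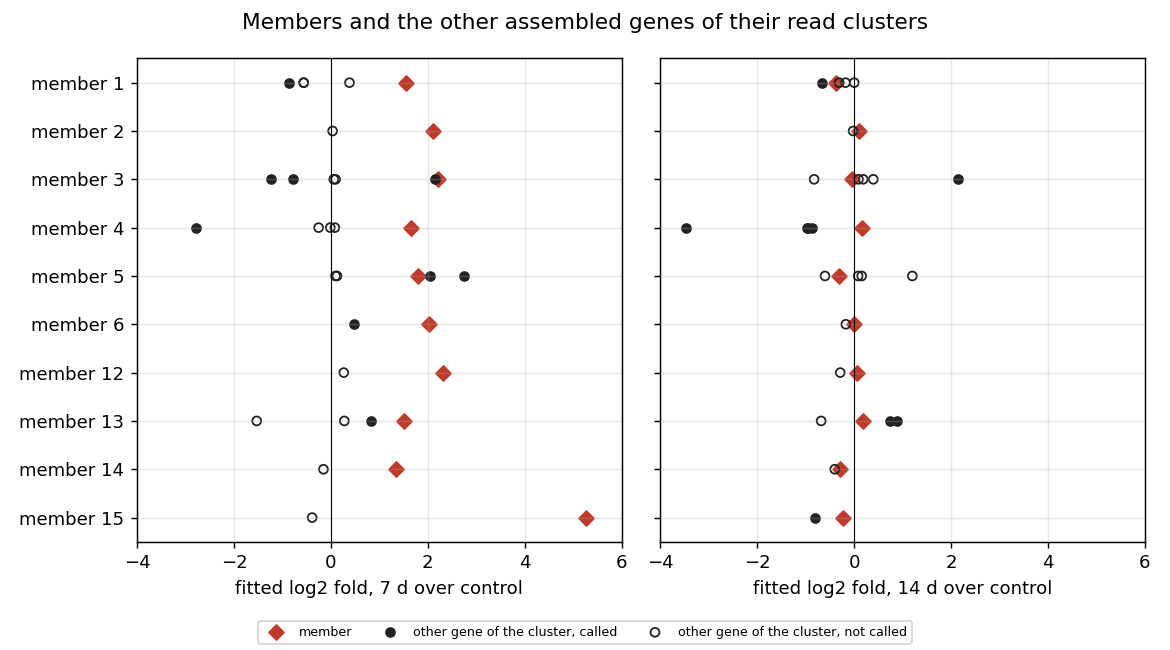
Fitted log2 fold over control at 7 d (left) and 14 d (right) for the 10 of the 16 genes with tested genes in the same read cluster. Diamonds are genes of the 16 (member n is gene n), filled circles other genes of the cluster called by edgeR and open circles those not called, and at 7 d the other genes come close to or pass the diamond in the clusters of genes 3 and 5.

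In the cluster of gene 5, another assembled gene stood at 184, 90.8 and 150 CPM at 7 d, at 37.5, 27.1 and 55.2 CPM at 14 d, and at 33.5, 29.3 and 39.1 CPM in controls. Its log2 fold for 7 d over control was 2.04 (edgeR adjusted p = 0.00016). Like gene 5, it was lowest at 7 d in replicate 2 and highest in replicate 1. It missed the rule because its lowest 7 d library was not 2 times 14 d replicate 3. A further gene of this cluster averaged 6.80 CPM at 7 d, 2.42 CPM at 14 d and 0.994 CPM in controls, with a log2 fold of 2.74 at 7 d (edgeR adjusted p = 0.000643). Its call as lower at 14 d than at 7 d (edgeR adjusted p = 0.0269) was lost without 7 d replicate 1 or 3 or 14 d replicate 1 or 2, with adjusted p from 0.0522 to 0.114. At 14 d against control it was not called (edgeR adjusted p = 0.112), but it was called higher without the filter on low counts (edgeR adjusted p = 0.0063), without 14 d replicate 2 (edgeR adjusted p = 0.0168) and with the replicate number as a block (edgeR adjusted p = 0.0208). In the cluster of gene 6, the gene with the 3 calls averaged 304 CPM at 7 d, 200.3 CPM at 14 d and 215 CPM in controls, a log2 fold of 0.49 at 7 d (edgeR adjusted p = 0.0207). That call was lost without control replicate 1 or 2 or 7 d replicate 1 or 3 (edgeR adjusted p = 0.0682 to 0.0755), and its call as lower at 14 d than at 7 d without 14 d replicate 2 (edgeR adjusted p = 0.0529).

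Within clusters, genes moved differently. In the cluster of gene 5, the other 2 tested genes averaged 2.03 and 6.44 CPM at 7 d, 2.04 and 4.10 CPM at 14 d, and 1.83 and 5.96 CPM in controls, and edgeR called neither in any of the 3 comparisons. A gene in the cluster of gene 3 was at 18.2 CPM at 7 d, 18.8 CPM at 14 d and 4.05 CPM in controls, and was called higher at both times with log2 folds of 2.15 and 2.14 (edgeR adjusted p = 1.28e-05 and 2.36e-05). In the cluster of gene 4, a gene averaged 2.42 CPM at 7 d, 1.55 CPM at 14 d and 16.4 CPM in controls, with log2 folds of -2.78 and -3.47 (edgeR adjusted p = 8.39e-06 and 4.19e-06). The other genes of this cluster averaged 16.6, 30.5 and 35.5 CPM at 7 d and 8.86, 19.6 and 19.0 CPM at 14 d. In controls they averaged 16.6, 35.9 and 33.2 CPM. They were called lower by edgeR at 14 d than both at 7 d and in controls, and were not called at 7 d against control. In the cluster of gene 2, the other gene averaged 144 CPM at 7 d, 143 CPM at 14 d and 138 CPM in controls and was not called in any of the 3 comparisons by edgeR.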

How the data were processed

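The authors deposited 1 table of estimated counts with a row for each assembled transcript, and all its values were whole numbers. Per the submitters' processing notes, FastQC, HISAT2 and Salmon were used, with neither versions nor order given. The form of the identifiers is that of the Trinity assembler, per the file headers. How the assembly was made is not given in the sources used here. Reads that several isoforms could have produced are divided among them by estimate in Salmon, so sums per assembled gene are firmer than isoform shares.

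Counts were summed by the identifier before the final isoform number. Gene sums were fitted with edgeR 4.0.16 in R 4.3.3 (TMM scaling, default expression filter with minimum count 10 and minimum total 15, quasi-likelihood test, 1 mean per group, 9 libraries). Isoform use was tested with diffSpliceDGE on the transcripts. A call is a p under 0.05 after Benjamini-Hochberg adjustment over every gene tested. The labels call the 3 individuals of a treatment biological replicates. Replicate numbers were not taken to pair libraries, since same-numbered libraries did not deviate together in every pair. Correlations of their deviations from group means ran from -0.230 to 0.179 in pairs with a control library. For 7 d with 14 d libraries they were 0.0354, 0.380 and 0.147 for replicates 1, 2 and 3. Whether 7 d and 14 d libraries were paired is therefore not known. Alternatives used DESeq2 1.42.0 and limma 3.58.1. Fits were also run on simulated data, but the outcome is not given here and no result rests on it. Figures used Python 3.11.15 and matplotlib 3.10.9.

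The members, the comparison sets and the tests were chosen with earlier results of these data known. The genes named by identifier were fixed by rule: the member with the highest 7 d mean, the member with the largest ratio of its lowest 7 d library to the highest other library, and, among members called in isoform use at 7 d, the 2 isoforms with the largest gain and the 2 with the largest loss of share without overlap, 1 isoform per gene and direction. Other genes of the read clusters were added after the data were seen.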

Additional observations from a re-analysis of the deposited data

How the results depend on the processing

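The number of genes meeting the rule was 16. It was 56 with a 1.5-fold limit, 5 with a 3-fold limit, 25 with a 1.5-fold bound at 14 d, 10 with a minimum of 10 CPM and 30 for single transcripts, and 16 to 61 with 1 library left out. With library sizes scaled by TMM it was 23, all 16 included, and with a 1.2-fold bound at 14 d it was 14. Over all genes, Simes-combined p-values called isoform use in 1351 genes at 7 d against control, 571 at 14 d against 7 d and 722 at 14 d against control. The F test called 3017, 1358 and 1773. Among the 16 genes, Simes-combined p-values called 0 at 14 d against control and lost gene 9 at 7 d (adjusted p = 0.0528). A minimum count of 30 left 6 of them testable and called 3, 3 and 0 in these comparisons. With 1 library left out, calls of gene sums ranged from 11348 to 18133 at 7 d against control, 3358 to 9429 at 14 d against 7 d and 7147 to 10638 at 14 d against control. Counts at 14 d against 7 d were 3358 to 4346 without 7 d replicate 1 or 3 or 14 d replicate 1 or 2. Of the 16 genes, 15 to 16, 14 to 16 and 0 to 1 were called, the 1 without 14 d replicate 3. Isoform use ranged from 2015 to 3372, 743 to 1773 and 1072 to 2021 over all genes and from 5 to 7, 4 to 6 and 1 to 1 among the 16. Other genes of the clusters called higher and lower ranged from 3 to 5 and 3 to 4, 0 to 2 and 4 to 7, and 2 to 4 and 5 to 7, and 1 to 3 showed the full time course of calls. The cause of these shifts was not tested, apart from the fewer genes testable at a minimum count of 30.

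With the replicate number as a block, 15164, 6843 and 9757 gene sums were called, against 15765, 7045 and 10237 without it, on the same 62564 genes, and 5, 5 and 1 of the 16 genes in isoform use. Correlations of deviations between same-numbered libraries ran from -0.23 to 0.38, and 5 of 9 libraries correlated best with their own number. Under the block, the gene in the cluster of gene 13 was called at neither time (edgeR adjusted p = 0.0724 and 0.0754).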
